A study of Rattus norvegicus with 6 samples.

Results

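The G1 cyclins, their kinases, the CDK inhibitors of the KIP type and the retinoblastoma gene were followed as a family of 10 genes (Ccnd1, Ccnd2, Ccnd3, Ccne1, Cdk2, Cdk4, Cdk6, Cdkn1b, Cdkn1c and Rb1) in rat neural stem/progenitor cells (NSPCs). They were chosen by symbol, and each matched a row among the 16881 gene symbols of the deposited count tables. The inhibitor gene Cdkn1a was left out of the family by rule and is followed in a list beside it. The cells were wild-type NSPCs taken from the telencephalon of mid-gestation Sprague-Dawley rat embryos, after the meninges had been dissected away, and all groups were grown in the same stemness-maintaining medium. The study asked how the conductivity of a film bears on the fate of these cells, and the comparisons here ask whether RNA of the genes that govern the exit from G1 differed between films. After 24 h on carbon nanotube and graphene oxide nanoribbon films, RNA was collected from 2 libraries for each of 3 films, “High” (the shortest oxidation and the highest electrical conductivity), “Medium” and “Low” (the longest oxidation and the lowest conductivity). The labels do not say whether the 2 libraries of a film came from separate cultures or litters, so p-values measure the spread between these libraries, which may be technical. No batch was named for the libraries, and an effect of a film cannot be told apart from one of the preparation of its libraries.

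Total counts were 5478066 and 5412882 in “High” (replicates 1 and 2), 5124863 and 5914540 in “Medium”, and 6213676 and 5460031 in “Low”. Medium replicate 1 stood apart, with a count on 5355 rows where the other 5 libraries had 6689 to 7809. Its correlations with them were 0.531 to 0.607, and the other pairs had 0.558 to 0.687. These are Pearson r across rows tested, which are not independent replicates. Replicates of the same film had r of 0.617 (“High”), 0.607 (“Medium”) and 0.638 (“Low”). Pairs from different films ran from 0.531 to 0.687, the highest being Medium replicate 2 with Low replicate 2. By this measure replicates were not set apart from libraries of other films. Ribosomal RNA made up 26.1% and 38.4% of a library in “High” and 7.16% to 13.0% in the other 4, and its part in the results below was not tested beyond the scaling without those rows. Levels are therefore given as TMM-normalized CPM, that is counts scaled to a common library size with edgeR's TMM factors, and the count behind a low value is printed with it. The libraries read the 3′ end of each transcript, so a count does not grow with transcript length and CPM was compared between genes without division by length.

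The cell type label was checked against marker genes. Of 12 markers of neural stem and progenitor cells, 9 had enough counts to be tested, and their summed level was 3643 and 3313 CPM in “High”, 5705 and 5696 CPM in “Medium”, and 4844 and 6504 CPM in “Low”. Vim, which encodes the intermediate filament vimentin, was the most abundant of them, with a mean of 2742 CPM over the 6 libraries. Prom1, Msi1 and Hes5, also markers of these cells, were listed at 0 in all 6 libraries. Akt1 and Ctnnb1, genes that most cells use, were likewise listed at 0 in all 6, so a 0 in these tables does not show that a transcript was absent.

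Cells leave G1 when D-type cyclins, made in response to growth factors, bind Cdk4 or Cdk6 and phosphorylate the retinoblastoma protein, which frees E2F factors to switch on cyclin E and the genes of DNA replication. Cyclin E with Cdk2 then completes the phosphorylation, while the KIP inhibitors p27 (Cdkn1b) and p57 (Cdkn1c) hold the kinases back. In the embryonic forebrain the length of G1 is known to grow as progenitors turn from dividing symmetrically to making neurons, and cyclin D1, cyclin D2 and p27 are among the genes that set it.

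Promoter sequence was at hand for 6 of the 10 members (Ccnd3, Ccne1, Cdk2, Cdk4, Cdkn1b and Rb1), as the 250 bases before the RefSeq start site in the GRCr8 assembly. Those of Cdk2, Cdk4 and Rb1 are shown because these members gave the 3 patterns described below: libraries on opposite sides of “High”, a value resting on 1 library, and the lowest p-value of the members in the joint comparison. They lie at chr7:1721879-1722128 (Cdk2, minus strand), chr7:64771203-64771452 (Cdk4, plus strand) and chr15:54911858-54912107 (Rb1, minus strand). Each is written 5′ to 3′ on the strand of its gene, with capitals for the letters CACGTG (an E-box) and GGGCGG (a GC box), the latter read as CCGCCC on the other strand.
Cdk2: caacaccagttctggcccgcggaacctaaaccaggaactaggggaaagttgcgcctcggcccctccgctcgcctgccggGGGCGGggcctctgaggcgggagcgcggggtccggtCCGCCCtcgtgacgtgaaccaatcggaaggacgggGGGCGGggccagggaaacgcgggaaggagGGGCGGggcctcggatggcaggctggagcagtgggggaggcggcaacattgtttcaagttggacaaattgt
Cdk4: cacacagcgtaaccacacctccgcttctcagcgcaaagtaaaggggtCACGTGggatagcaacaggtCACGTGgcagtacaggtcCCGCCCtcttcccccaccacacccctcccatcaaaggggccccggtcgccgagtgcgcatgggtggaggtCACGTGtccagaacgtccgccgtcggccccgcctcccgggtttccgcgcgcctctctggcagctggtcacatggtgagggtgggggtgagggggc
Rb1: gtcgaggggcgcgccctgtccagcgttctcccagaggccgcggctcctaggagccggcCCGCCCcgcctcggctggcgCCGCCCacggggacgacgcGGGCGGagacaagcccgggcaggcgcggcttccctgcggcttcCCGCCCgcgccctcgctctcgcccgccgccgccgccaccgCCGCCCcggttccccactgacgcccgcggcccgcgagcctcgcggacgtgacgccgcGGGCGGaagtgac
The Cdk4 promoter held CACGTG 3 times, starting 203, 183 and 95 bases before the start site, and no other member promoter held it. Among 27457 rat promoters of the same length, 5.79% held it at least once and 16 (0.0583%) at least 3 times. GGGCGG was found in 6 of the 6 member promoters and in 32.4% of all promoters, with 6 copies before Rb1, 4 before Cdk2, 3 before Ccne1, 2 before Ccnd3 and 1 each before Cdk4 and Cdkn1b. The E2F-type letters TTTCGCGC, TTTGGCGC, TTTCCCGC and TTTGCCGC, read on both strands, were in 0 of the 6 and in 1.81% of all promoters. No match overlapped another, and these matches describe letters, not bound sites. The letters were chosen after the sequences had been seen.

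Cyclin D1 made up most of the family's counts. Since Akt1 and Ctnnb1 were listed at 0 in every library, a share of counts need not be a share of RNA. Ccnd1 stood at 2918 and 4004 CPM in “High”, at 3076 and 3148 CPM in “Medium”, and at 3567 and 3312 CPM in “Low”. The 2 “High” libraries were the lowest and the highest of the 6, so the other films fell between them. It ranked 7 of the 7729 rows tested by mean CPM, and took 81.6% to 91.7% of the counts of the 10 members in a library. With “Low” and “Medium” averaged and set against “High”, the log2 fold change was -0.08 ± 0.18 (SE, 4 libraries against 2; 95% interval -0.49 to 0.33; adjusted p = 0.9997 by edgeR's quasi-likelihood test). This was the narrowest interval of the 9 members tested. Log2 fold changes below are given ± SE and refer to this joint comparison unless another is named, positive where “Low” and “Medium” were higher.

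**Figure D1:**
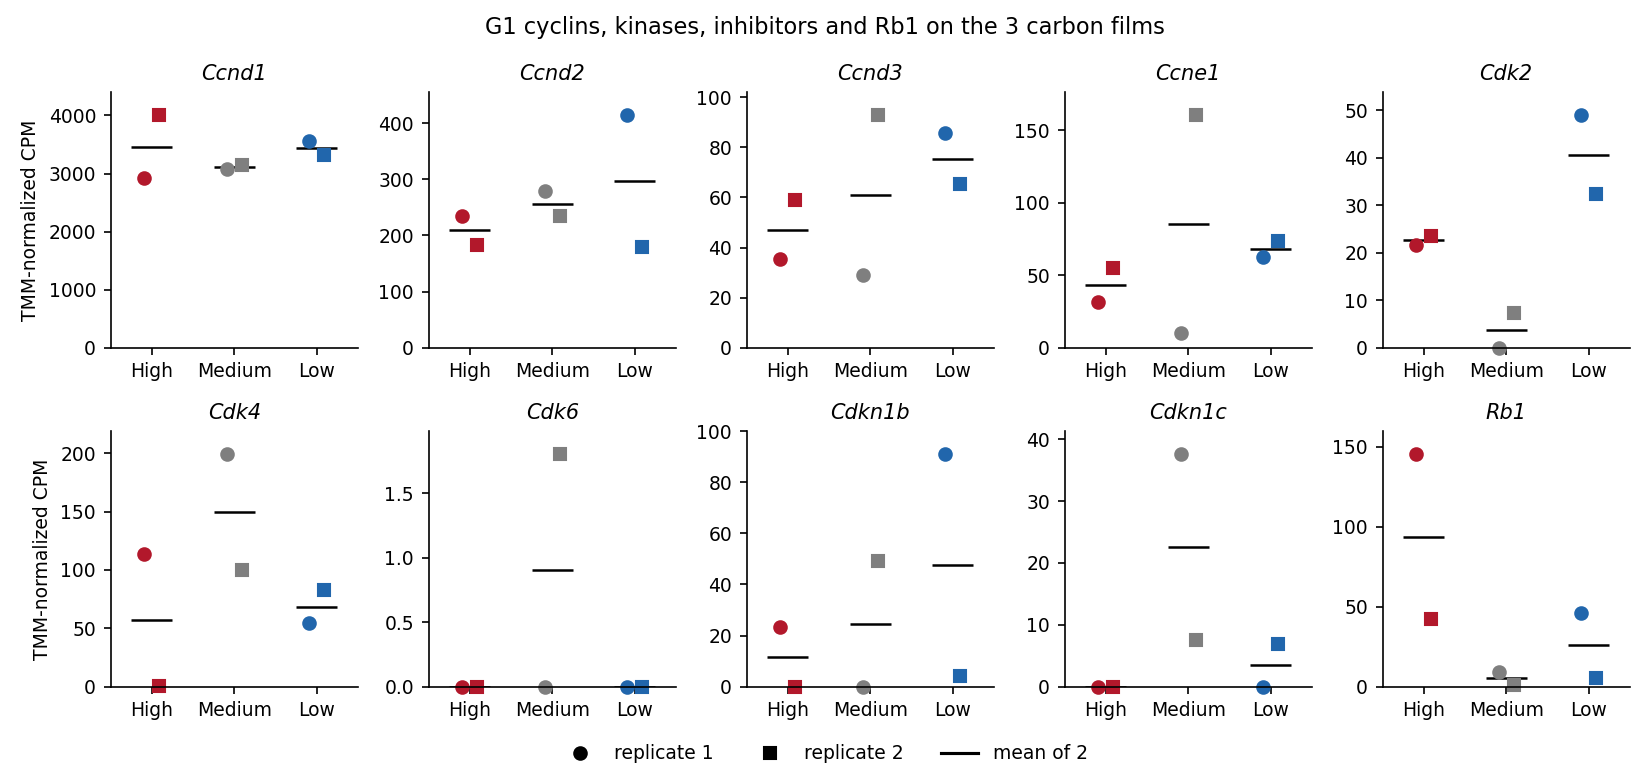
TMM-normalized CPM (linear axes from 0, a scale of its own per gene) of the 10 members in each library, by film, with circles for replicate 1, squares for replicate 2 and a line at the mean of 2. Ccnd1 lay between 2918 and 4004 CPM in all libraries, Cdk2 lay lowest in “Medium”, and Cdk4, Cdkn1b and Rb1 differed between replicates of a film by as much as between films.

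The direction of Ccnd1 depended on the scaling. As CPM of all counts, with no TMM factors, it was 2585 and 3101 CPM in “High”, 3498 and 3245 CPM in “Medium”, and 3962 and 3614 CPM in “Low”, so that all 4 libraries of “Low” and “Medium” lay above both of “High” and the log2 fold change became 0.33 (adjusted p = 0.728 by edgeR's quasi-likelihood test). On the counts outside ribosomal RNA it was 3498 and 5032 CPM in “High”, 3772 and 3731 CPM in “Medium”, and 4268 and 3913 CPM in “Low”, where the films overlapped again. The median of all 7729 rows moved with the scaling in the same way, from -0.12 with TMM to 0.26 with library sizes alone. Relative to that median, Ccnd1 was 0.04 higher with TMM and 0.07 higher with library sizes alone, so it stood near the middle of all rows under either scaling.

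A ratio of 2 genes within a library needs no scaling. Ccnd1 counts were 1.82 and 2.80 times those of Cdkn1a, the gene of the inhibitor p21, in “High”, 6.90 and 6.28 times in “Medium”, and 6.94 and 4.86 times in “Low”. The ratio was thus higher in the 4 libraries of “Low” and “Medium” than in either “High” library, with means of 2.31 ± 0.69 (SD, n = 2), 6.59 ± 0.44 and 5.90 ± 1.47 for “High”, “Medium” and “Low”. The change in the ratio came with a change in Cdkn1a, which passed the test and is described below. The ratio was chosen with these values known and was given no test.

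**Figure D2:**
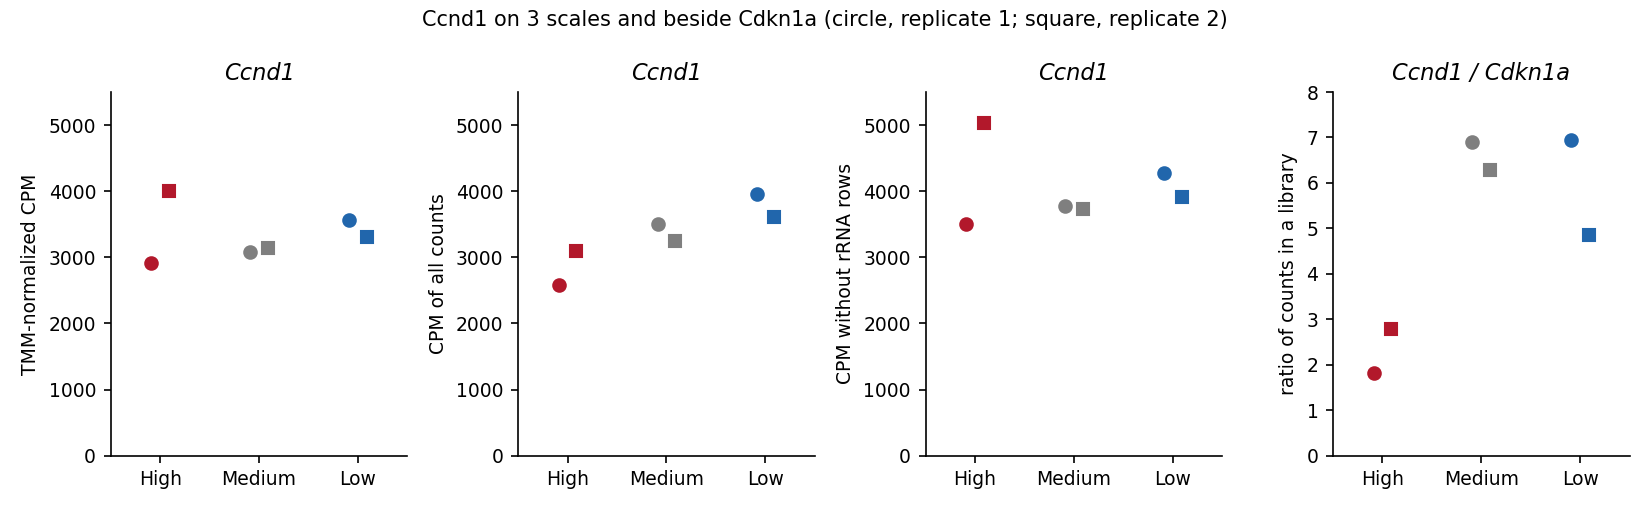
Ccnd1 in each library as TMM-normalized CPM, as CPM of all counts and as CPM of the counts outside ribosomal RNA, and the ratio of Ccnd1 to Cdkn1a counts (axes from 0; circles replicate 1, squares replicate 2). “Low” and “Medium” lay above both “High” libraries on the second scale and in the ratio, and overlapped with “High” on the other scales.

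The 3 genes whose profile over the 6 libraries was most like that of Ccnd1, of 4314 compared on log2(CPM + 1), were Ubtf (r = 0.95), Rps10 (0.946) and Psmd1 (0.944). Ubtf encodes a transcription factor of the ribosomal RNA genes, Rps10 a ribosomal protein and Psmd1 a subunit of the proteasome. All 3 were highest in High replicate 2, as Ccnd1 was, at 182, 1168 and 680 CPM. With 6 libraries such values are a description of these libraries alone.

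Cyclin D2, the other D cyclin prominent in forebrain progenitors, was next in level, with Ccnd2 at 235 and 183 CPM in “High”, 278 and 235 CPM in “Medium”, and 414 and 180 CPM in “Low”. Low replicate 1 was the highest library and Low replicate 2 the lowest, so “Low” spanned the range of the other films. The log2 fold change of “Low” and “Medium” against “High” was 0.40 ± 0.44 (95% interval -0.57 to 1.37; adjusted p = 0.957 by edgeR's quasi-likelihood test). It fell to 0.040 without Low replicate 1 and to 0.23 without High replicate 2, and was 0.64 without Low replicate 2. Counts of Ccnd1 were 8.61 to 21.9 times those of Ccnd2, lowest in Low replicate 1 and highest in High replicate 2, and the replicates of “High” (12.4 and 21.9) and of “Low” (8.61 and 18.4) were farther apart than the film means.

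Cyclin D3 was the least abundant D cyclin, with Ccnd3 at 35.2 and 58.9 CPM in “High”, 29.0 and 92.8 CPM in “Medium”, and 85.6 and 65.5 CPM in “Low”. Both “Low” libraries were above both “High” libraries, and the 2 “Medium” libraries were the lowest and the highest of all. Its log2 fold change in the joint comparison was 0.53 ± 1.12 (95% interval -1.97 to 3.02), and for “Low” against “High” it was 0.68 ± 1.27. Summed over the 3 genes, D cyclin RNA was 3717 ± 748 CPM (SD, n = 2) in “High”, 3430 ± 65.1 CPM in “Medium” and 3812 ± 360 CPM in “Low”, differences within the spread of “High”.

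Cyclin E1, which activates Cdk2 late in G1, varied most between the “Medium” libraries. Ccne1 was 31.3 and 55.1 CPM in “High”, 9.95 and 160 CPM in “Medium”, and 62.9 and 73.7 CPM in “Low”. As for Ccnd3, “Low” lay above “High” without overlap while “Medium” held the extremes, from 58 counts in replicate 1 to 978 in replicate 2. Its log2 fold change was 0.82 ± 1.25 (95% interval -1.97 to 3.61) and became -0.75 when Medium replicate 2 was left out. Ccne2, the other cyclin E, had 83.9 CPM in High replicate 1 and 0.239 CPM (1 count) in High replicate 2, beside 25.1 to 86.2 CPM in the other 4 libraries.

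The partner kinase Cdk2 was the member whose libraries did not overlap in any of the 3 comparisons of single films. It was 21.6 and 23.6 CPM in “High”, 0 and 7.38 CPM in “Medium”, and 49.0 and 32.4 CPM in “Low”. Both “Medium” libraries were thus below and both “Low” libraries above the “High” libraries. Libraries of “Low” and “Medium” lay on opposite sides of both “High” libraries in 103 of the 7729 rows tested (1.33%). Among the 9 members tested this held for 1. The difference did not pass the test, with a log2 fold change of “Low” against “Medium” of 3.45 ± 3.22 (95% interval -3.73 to 10.6; adjusted p = 1 by edgeR's quasi-likelihood test). The joint log2 fold change of -0.88 ± 2.46 became -0.38 without Medium replicate 1 and -4.57 without Medium replicate 2. The 0 of Medium replicate 1, the library with the fewest rows detected, allows a level of up to 0.515 CPM (3 counts, counting error only).

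Cdk4, the kinase of the D cyclins, was 114 and 0.239 CPM in “High”, 199 and 100 CPM in “Medium”, and 54.2 and 82.9 CPM in “Low”. The low value of High replicate 2 was a single count, where its replicate had 552 and the other 4 libraries 374 to 1160. For Cdk4 the joint log2 fold change was 0.83 ± 1.45 (95% interval -2.39 to 4.05; adjusted p = 0.9997 by edgeR's quasi-likelihood test). Leaving out High replicate 1, so that the single count stood for “High”, gave 8.61 with an adjusted p of 0.0330 by the same test, and leaving out High replicate 2 gave -0.17 with an adjusted p of 0.9999. Cdk4 in “High” therefore rested on which of the 2 libraries was read. Between the other films, both “Medium” libraries were above both “Low” libraries (log2 fold change of “Low” against “Medium” -1.13 ± 1.63; adjusted p = 1 by the same test).

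Cdk6, the other D cyclin kinase, had 11 counts in Medium replicate 2 (1.80 CPM) and 0 in the other 5 libraries. It was the member that did not pass the filter on low counts, and no fold against a film at 0 could be set from so few counts beyond at least 1.35-fold over “High” and at least 1.92-fold over “Low”, taking 3 counts per library as the floor. These bounds cover counting error alone. Summed kinase RNA (Cdk2, Cdk4 and Cdk6) was 79.6 ± 78.8 CPM in “High”, 154 ± 63.4 CPM in “Medium” and 109 ± 8.60 CPM in “Low”, with Cdk4 the larger share in the means of all films.

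The inhibitor p27, which binds cyclin E and Cdk2 and accumulates in cells that leave the cycle, gave the widest spread between replicates. Cdkn1b was 23.3 and 0 CPM in “High”, 0 and 49.4 CPM in “Medium”, and 91.0 and 4.36 CPM in “Low”. Within each film a library was at or near 0 while its replicate was among the 3 highest, so no order of the films could be read. The mean difference between replicates was 4.79 on the log2(CPM + 1) scale, against a median of 2.67 for the 2092 rows of like level. The joint log2 fold change of 1.56 ± 3.05 had a 95% interval from -5.23 to 8.35, and its sign turned when Medium replicate 2 (-3.49) or Low replicate 1 (-0.16) was left out.

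The inhibitor p57, which like p27 binds cyclin and kinase together, had counts in 3 of the 4 libraries of the less conductive films and in neither “High” library. Cdkn1c was 0 in both “High” libraries, 37.6 and 7.54 CPM in “Medium” (219 and 46 counts), and 0 and 6.88 CPM in “Low” (0 and 41 counts). Taking the floor of 3 counts per library for “High”, the mean of “Medium” was at least 33.8-fold higher and that of “Low” at least 5.16-fold higher. The first bound rests mostly on Medium replicate 1 (37.6 CPM beside 7.54 CPM) and the second on Low replicate 2 alone. The joint comparison did not pass the test (adjusted p = 0.801 by edgeR's quasi-likelihood test). Cdkn1c is an imprinted gene, and in these libraries it was the least abundant member after Cdk6.

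Rb1, which encodes the retinoblastoma protein, was the member with the lowest p-value in the joint comparison. It was 145 and 42.5 CPM in “High”, 9.44 and 1.31 CPM in “Medium”, and 46.1 and 5.54 CPM in “Low”. Both “Medium” libraries were below both “High” libraries, while Low replicate 1 lay between the 2 “High” libraries. The log2 fold change was -2.99 ± 1.60 (95% interval -6.56 to 0.58; adjusted p = 0.801 by edgeR's quasi-likelihood test), and for “Medium” against “High” it was -4.12 ± 2.17 (adjusted p = 0.908 by the same test). The joint value was -1.84 without High replicate 1, and -4.00 and -4.10 without Medium replicate 1 and Low replicate 1. Rbl2, which encodes the related pocket protein p130, was 88.4 and 41.7 CPM in “High”, 58.9 and 37.9 CPM in “Medium”, and 50.3 and 23.2 CPM in “Low”, with a log2 fold change of -0.63 ± 1.24.

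**Figure D3:**
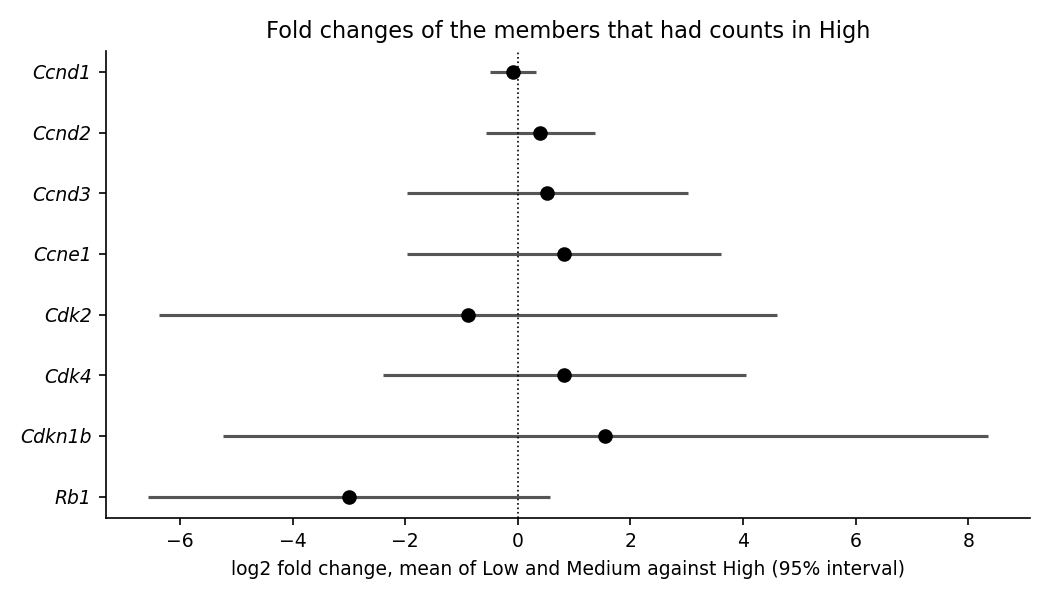
Log2 fold change in the joint comparison of “Low” and “Medium” with “High” for the 8 members with counts in “High” that were tested, with 95% intervals from edgeR's quasi-likelihood fit; the dotted line marks no change. Every interval crosses 0, from -0.49 to 0.33 for Ccnd1 to -5.23 to 8.35 for Cdkn1b.

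Across the family, from which Cdkn1a was left out, 0 of the 9 members tested had an adjusted p under 0.05 in any of the 4 comparisons, by edgeR or by DESeq2. An unadjusted p under 0.05 was held by 0 of them by edgeR and, by DESeq2, by 2 (Cdkn1c and Rb1) in the joint comparison, by the same 2 in “Medium” against “High” and by 0 in the other comparisons. Among all 7729 rows the share called by edgeR was 0.129% for “Low” and “Medium” against “High”, 0.0518% for “Low” against “High”, 0.0129% for “Medium” against “High” and 0% for “Low” against “Medium”. Unadjusted p-values under 0.05 were held by 5.50%, 4.27%, 4.04% and 1.51% of the rows, in the same order, and DESeq2 called 4.84%, 3.62%, 4.47% and 1.58% of the rows it adjusted. Its unadjusted p was under 0.05 in 14.4%, 11.8%, 12.1% and 8.50% of the rows with a count. With such shares, 0 calls among 9 members is near the background. Cdkn1a, left out by rule, did pass in the joint comparison, with an adjusted p of 0.0399 by edgeR's quasi-likelihood test and 2.5e-14 by DESeq2. The 0 therefore holds for the 9 members and not for every G1 inhibitor.

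The median log2 fold change of the 9 members in the joint comparison was 0.53, with 6 above 0 and 3 below, beside -0.12 for all rows tested. The 9 include Cdkn1c, which passed the filter through the films where it was present, and whose fitted value depends on a prior count. Without it the median of the other 8 was 0.46, with 5 above 0 and 3 below. For “Low” against “High” the median was 0.66 (all rows 0.02) and for “Medium” against “High” 0.37 (all rows -0.06), and both of these comparisons use the same “High” libraries. With library sizes alone the members' medians became 0.93, 1.09 and 0.74, in the order joint, “Low” and “Medium” against “High”, and those of all rows 0.26, 0.42 and 0.29. The distance of the members' median from that of all rows in the joint comparison was 0.65 with TMM and 0.67 with library sizes alone.

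Libraries of 2 groups did not overlap for 0 of the 9 members in the joint comparison (18.2% of all rows), for 3 in “Low” against “High” (37.4%), for 4 in “Medium” against “High” (34.8%) and for 4 in “Low” against “Medium” (29.0%). By direction the background was 8.06% higher and 10.1% lower in the joint comparison. The 3 were Ccnd3, Ccne1 and Cdk2, each higher in “Low” (higher in 19.4% of all rows, lower in 18.0%). In “Medium”, Ccnd2 and Cdkn1c were higher and Cdk2 and Rb1 lower than in “High” (16.2% of all rows higher, 18.6% lower). For Ccnd2 the gap was small, at 235.36 CPM in Medium replicate 2 and 235.28 CPM in High replicate 1. On the counts outside ribosomal RNA, Ccnd2 overlapped between these films (279 and 282 CPM in the same 2 libraries). “Low” was above “Medium” for Ccnd1 and Cdk2 and below it for Cdk4 and Cdkn1c (16.3% of all rows above, 12.6% below). With library sizes alone the counts became 1, 4, 6 and 4, in the order given first, beside 20.1%, 40.9%, 37.0% and 29.2% of all rows under that scaling. Ccnd1 was added as higher in each comparison with “High” (in the joint comparison 14.0% of all rows separated as higher) and Cdk4 as higher in “Medium”.

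By a fold rule (film means at least 1.5 times apart, and the higher film at 2 or more in mean log2(CPM + 1)), 5 of 9 members differed in “Low” from “High” and 6 of 9 in “Medium”. All rows tested passed this rule in 60.7% and 60.8% of cases, so these counts are near the background. The shares higher and lower were 30.6% and 30.1% in “Low” and 28.0% and 32.8% in “Medium”. In “Low” the rule took Ccnd3, Ccne1, Cdk2 and Cdkn1b as higher and Rb1 as lower, and in “Medium” it took Ccne1, Cdk4, Cdkn1b and Cdkn1c as higher and Cdk2 and Rb1 as lower. Ccnd1 and Ccnd2, the most abundant members, were in neither set.

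The most abundant members had the smallest spread. The mean difference between the 2 libraries of a film, on the log2(CPM + 1) scale, was 0.20 for Ccnd1, 0.60 for Ccnd2, 0.92 for Ccnd3, 1.26 for Cdk2, 1.63 for Ccne1, 1.72 for Cdkn1c, 2.26 for Rb1, 2.71 for Cdk4 and 4.79 for Cdkn1b. Rows of like level had medians of 0.27 (Ccnd1), 0.75 (Ccnd2), 1.66 (Ccnd3, Ccne1, Cdk4 and Rb1), 2.67 (Cdk2 and Cdkn1b) and 2.31 (Cdkn1c). Cdk4, Rb1 and Cdkn1b thus differed more between replicates than rows of like level did in the median, and the other 6 less. Over the 9 members the median was 1.63, and over all rows tested 1.69.

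**Figure D4:**
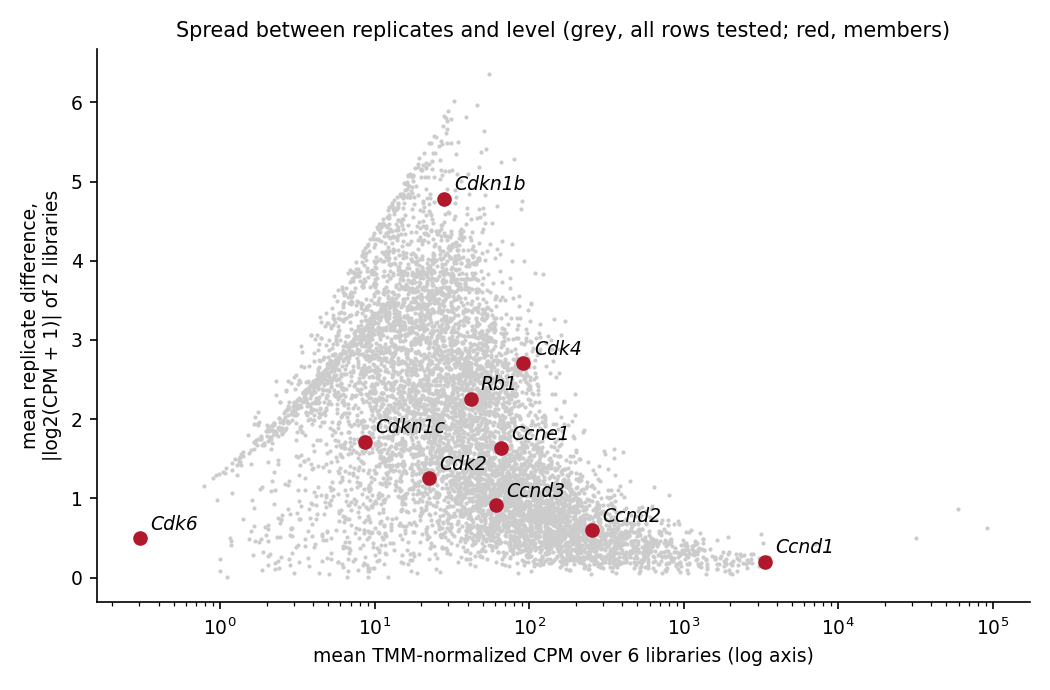
Mean difference between the 2 libraries of a film on the log2(CPM + 1) scale against mean TMM-normalized CPM over 6 libraries (log axis), with a grey point for each row tested and red points for the 10 members. The widest spread of the members is that of Cdkn1b (4.79) and the narrowest of those tested that of Ccnd1 (0.20), and Cdk6, which did not pass the filter, lies far left.

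The genes around the G1 to S step were followed as lists. Beside the members, the inhibitors of the INK4 and CIP types had 4 of 5 genes tested, with 1 lower and 0 higher past the threshold in the joint comparison. Their log2 fold changes were positive for 2 and negative for 2, with a median of -0.08 beside -0.12 for all rows. The gene past the threshold was Cdkn1a, which encodes p21, an inhibitor that p53 induces. Cdkn1a was 1607 and 1432 CPM in “High”, 446 and 501 CPM in “Medium”, and 514 and 682 CPM in “Low”, so that every library of the less conductive films was below both “High” libraries. Its log2 fold change was -1.51 ± 0.22 (adjusted p = 0.0399 by edgeR's quasi-likelihood test), and with library sizes alone -1.13 (adjusted p = 0.156 by the same test). Cdkn2b, which encodes p15, an INK4 inhibitor of Cdk4 and Cdk6, was 391 and 311 CPM in “High”, 222 and 347 CPM in “Medium”, and 253 and 310 CPM in “Low” (log2 fold change -0.31 ± 0.34). Cdkn2a, which encodes the INK4 inhibitor p16 and the protein ARF and was picked after its values were seen, lay on the other side, at 33.2 and 63.5 CPM in “High”, 85.5 and 134 CPM in “Medium”, and 88.4 and 64.8 CPM in “Low”. All 4 libraries of the less conductive films were above both of “High”, as for 8.06% of all rows, with one of “Low” only just above, and the log2 fold change was 0.92 ± 0.90 (adjusted p = 0.938 by edgeR's quasi-likelihood test; 1.34 with library sizes alone, 0.53 without High replicate 1 and 1.46 without High replicate 2).

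No gene of the other 7 cell cycle lists passed the threshold by edgeR's quasi-likelihood test, which gave 4 of them an unadjusted p under 0.05. DESeq2 called Ccna2 (adjusted p = 7.1e-06) and Birc5 (adjusted p = 0.00125) of those named here, and edgeR called Birc5 with no filter (adjusted p = 0.0147), with a mean count of at least 10 (0.0219) and with the replicate block (0.0223). Among the cyclins and markers of S to M phase (10 of 10 tested, median log2 fold change 0.10), Ccna2, the cyclin A of S phase and mitosis, was counted 0 and 6 times in “High”, 401 and 116 times in “Medium”, and 765 and 879 times in “Low”. In CPM this was 0 and 1.43, then 68.8 and 19.0, then 111 and 148, with a log2 fold change of 6.69 (adjusted p = 0.616 by edgeR's quasi-likelihood test). The fold rests on the 6 counts of a single “High” library. Birc5, which encodes survivin, a protein of dividing cells, was 150 and 129 CPM in “High”, 309 and 738 CPM in “Medium”, and 511 and 290 CPM in “Low” (log2 fold change 1.72 ± 0.45; adjusted p = 0.468 by the same test). Both genes were above “High” in all 4 libraries of “Low” and “Medium”, as was Cdc20, an activator of the anaphase-promoting complex, at 239 and 211 CPM in “High”, 266 and 274 CPM in “Medium”, and 552 and 434 CPM in “Low” (log2 fold change 0.70 ± 0.32). Of the 10 genes of this list, 6 had a positive and 4 a negative log2 fold change. In the joint comparison 4 of the 10 separated as higher and 0 as lower, beside 8.06% and 10.1% of all rows. The last of the 4 was Aurkb, at 0 in both “High” libraries and at 5.41 to 18.5 CPM in the other 4.

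In the list of mitogen input to the D cyclins (11 of 18 tested, median -0.36, with 3 positive and 8 negative), 2 genes had an unadjusted p under 0.05, both lower. Fgfr1, a receptor of the growth factor FGF2 that maintains NSPCs in culture, had 85 and 563 counts in “High” and was listed at 0 in the other 4 libraries (adjusted p = 0.531 by edgeR's quasi-likelihood test). Map2k1, a kinase of the growth factor cascade, had a log2 fold change of -0.38 ± 0.56, with films that overlapped. Fgfr2 was listed at 0 in all 6 libraries.

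For the E2F and DP factors (5 of 10 tested) the median was -0.74, with 1 positive and 4 negative. Tfdp1, the DNA-binding partner of the E2Fs, was 122 and 192 CPM in “High”, 41.5 and 71.5 CPM in “Medium”, and 74.5 and 81.1 CPM in “Low”. It was lower in all 4 libraries, as were 10.1% of all rows (-1.24 ± 0.70, adjusted p = 0.801 by edgeR's quasi-likelihood test). E2f1 was 33.6 and 33.6 CPM in “High”, 183 and 23.0 CPM in “Medium”, and 9.42 and 14.6 CPM in “Low”, so its mean in “Medium” rested on replicate 1. Their S phase target genes (19 of 20 tested) had a median of 0.25, with 12 positive and 7 negative. The most abundant of these was Pcna, the sliding clamp of DNA polymerase, at 166 and 196 CPM in “High”, 433 and 202 CPM in “Medium”, and 254 and 179 CPM in “Low” (0.54 ± 0.45). Mcm6, a subunit of the replicative helicase, was 148 and 96.4 CPM in “High”, 80.8 and 142 CPM in “Medium”, and 307 and 145 CPM in “Low” (0.38 ± 0.57).

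For the CDK-activating kinase and CDC25 phosphatases (4 of 7 tested) the median was 0.02. Ccnh, the cyclin of that kinase, was higher in all 4 libraries of “Low” and “Medium” (115 to 240 CPM) than in “High” (72.3 and 90.7 CPM), as were 8.06% of all rows. Its log2 fold change was 1.14 ± 0.56 with an adjusted p of 0.801 by edgeR's quasi-likelihood test, while its assembly factor Mnat1 was at 0.15 ± 0.64. For the genes of the turnover of G1 proteins (13 of 14 tested) the median was 0.25, with 9 positive and 4 negative. Rbx1 and Skp1, subunits of the SCF ubiquitin ligase that degrades cyclin E and p27, had log2 fold changes of 0.56 ± 0.32 and 0.25 ± 0.37. The other G1 cyclins and pocket proteins (2 of 3 tested) were Ccne2 (0.48 ± 1.65) and Rbl2, given above.

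**Figure D5:**
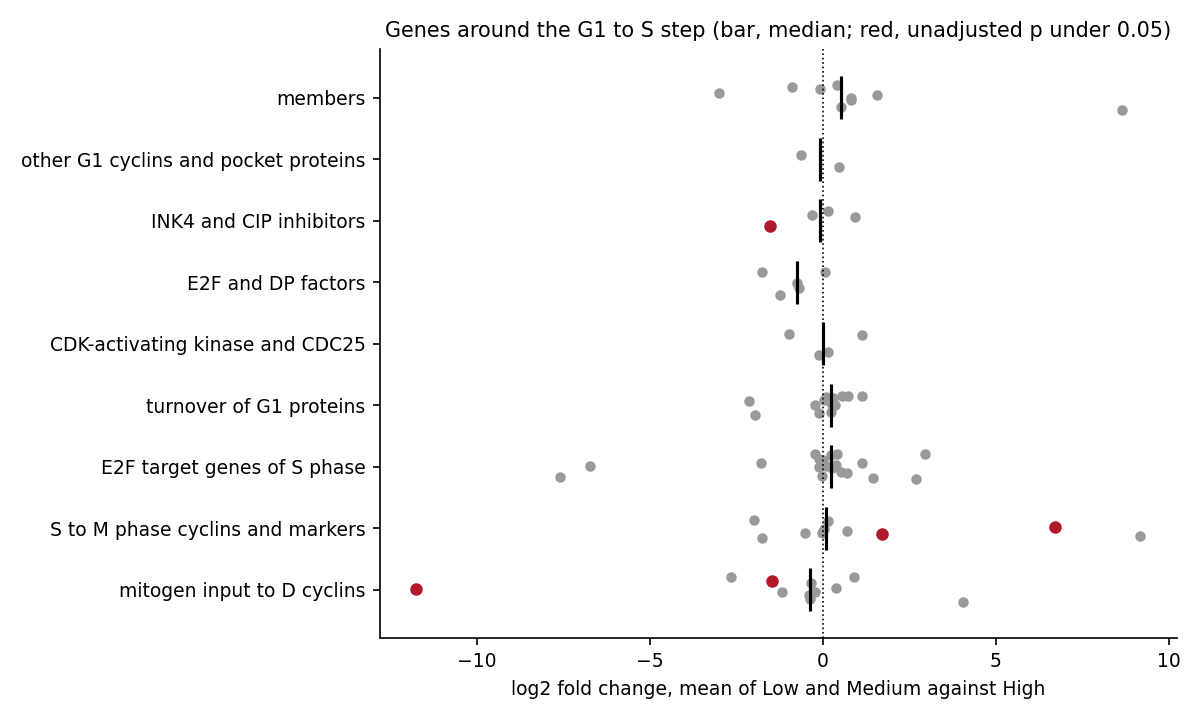
Log2 fold change in the joint comparison of “Low” and “Medium” with “High” for each gene tested in the members and 8 lists around the G1 to S step, with a bar at the median of each list and red for an unadjusted p under 0.05 by edgeR's quasi-likelihood test. The medians run from -0.74 (E2F and DP factors) to 0.53 (members), and values beyond about 5 in either direction belong to genes with a film at or near 0.

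Marker genes of the cells in the cultures were read in the same libraries. Of the 9 neural stem and progenitor markers tested, 6 had a positive and 3 a negative log2 fold change (median 0.85), and 4 had an unadjusted p under 0.05, namely Nes (log2 fold change 1.64), Sox2 (1.24), Sox9 (0.97) and Vim (0.58), of which the lowest adjusted p was 0.212 (Sox2, edgeR's quasi-likelihood test). DESeq2 called these 4 and Olig2, with adjusted p from 3.3e-06 (Sox2) to 0.0404 (Vim). The 3 negative values were those of Fabp7 (-0.60 ± 0.55), a lipid-binding protein of radial glia, Hes1 (-0.82 ± 1.31) and Notch1 (-0.25 ± 3.01). Fabp7 was 205 and 225 CPM in “High”, 342 and 156 CPM in “Medium”, and 42.3 and 118 CPM in “Low”, so both “Low” libraries were below both “High” libraries. Olig2, a factor of the oligodendrocyte lineage that progenitors also express, was at 172 and 179 CPM in “High”, 346 and 303 CPM in “Medium”, and 346 and 388 CPM in “Low”. The oligodendrocyte lineage markers summed to 326 and 413 CPM in “High”, 639 and 556 CPM in “Medium”, and 748 and 619 CPM in “Low”, with Olig1 and Olig2 the most abundant and Sox10 at 0 in every library. The sum of Medium replicate 1 holds 129 CPM of Mog (752 counts), which was at 0 in every other library. That of High replicate 2 holds 56.3 CPM of Cspg4, which was at 0 in High replicate 1. Neuron markers summed to 69.4 and 31.0 CPM in “High”, 27.1 and 147 CPM in “Medium”, and 202 and 140 CPM in “Low”, with Gap43 the most abundant and Rbfox3, Neurod1, Syt1 and Nefl listed at 0 in every library. Tubb3 had 96 and 72 counts in “Low” and 0 in the other films. Map2 had 138 and 20 counts in “Low”, and elsewhere 6 in Medium replicate 2 alone. The other way, Stmn2 had counts in High replicate 1 alone (60) and Snap25 in High replicate 2 alone (52). Astrocyte markers summed to 64.1 to 110 CPM over the 6 libraries, with Aldoc the most abundant and Aqp4, Aldh1l1 and Slc1a2 at 0. Microglia markers were at 0 in 5 libraries and 7.10 CPM in Low replicate 1.

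Meningeal and vascular markers were at 0 to 35.8 CPM in 5 libraries and at 338 CPM in Medium replicate 2, nearly all of it Col1a1 (2005 counts), with Dcn, Lum, Pecam1, Cldn5 and Pdgfrb at 0 in every library. The same library had the highest Ccne1 and Ccnd3 and the only Cdk6 counts of the 6. The part of other cell types in the members' values was not tested. In bulk RNA, fewer cells of a type and less RNA per cell cannot be told apart.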

How the data were processed

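Rat NSPCs from 3 carbon films were profiled with 2 QuantSeq 3′ libraries each. The authors used Bowtie2 for alignment and Bedtools for counting, took both unique and multiple alignments, and deposited whole-number counts, 1 table per library, with 17048 rows; per the labels the build was rn6, and the annotation is not given in the sources used here. Multiply aligned reads leave near-identical genes uncertain, and without molecular identifiers intervals and floors cover counting error only. The labels name Trizol and the study's methods a Ribospin kit for RNA isolation. No column of other samples was present (0 columns).

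Rows passing edgeR's filterByExpr (7729 of 9566 with a count) were TMM-normalized and went into edgeR's quasi-likelihood test (R 4.3.3, edgeR 4.0.16), in a single fit of 3 group means over 6 libraries, with 3 residual degrees of freedom (common dispersion 2.04) and Benjamini-Hochberg adjustment over the rows tested at 0.05. Intervals use the SE implied by the quasi-likelihood F statistic. An exact permutation test of a single gene could not go below p = 0.133 for 4 libraries against 2, or 0.333 for 2 against 2. Floors were 3 counts per library. The fold rule takes its thresholds from the study, and reading its normalized value as mean log2(CPM + 1) in the higher film was a choice made here. No 2 libraries were identical.

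Alternatives were DESeq2 1.42.0, limma-voom 3.58.1, other scalings and filters, a replicate block, fits on the groups compared and leaving out each library. The scripts were tested on simulated counts. All members are named, and of the other lists the genes past the threshold or with an unadjusted p under 0.05 in the joint comparison, the 2 most abundant tested genes of each cell cycle list, and defining markers at 0, apart from 1 gene that is not reported here. Some further genes of the lists, among them Tubb3, Map2, Mog and Aurkb, are named with their values known. The members and lists were chosen with earlier results of these data known.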

Additional observations from a re-analysis of the deposited data

Results flagged for a closer look

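Cdk2 was the member for which “Low” and “Medium” lay on opposite sides of “High”, with both “Low” libraries (49.0 and 32.4 CPM) above and both “Medium” libraries (0 and 7.38 CPM) below the “High” libraries (21.6 and 23.6 CPM). The log2 fold change was 0.85 for “Low” against “High” and -2.61 for “Medium” against “High”, comparisons that share the “High” libraries, and the test of their difference, “Low” against “Medium”, gave 3.45 (95% interval -3.73 to 10.6; adjusted p = 1 by edgeR's quasi-likelihood test). “Low” and “Medium” lay on opposite sides of “High” in 1.33% of all rows tested. Leaving out each library in turn gave 2.46 to 10.8 for this difference, the highest without Medium replicate 2, which leaves “Medium” at 0.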

How the results depend on the processing

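Of the 141 values of single members under the alternatives, 133 kept their direction and their side of the threshold, 7 changed sign and 1 passed the threshold. Of the 336 values of other named genes, 307 kept both, 1 lost and 16 gained the threshold and 12 changed sign, the gains being those of Birc5, Ccna2, Nes, Sox2, Sox9, Vim and Olig2. No member passed the threshold under DESeq2, limma-voom, other scalings or filters, or the replicate block. When a library is left out, the lone library of its film is assumed to vary like the other films. Counts of rows past the threshold, 10 for “Low” and “Medium” against “High”, 4 for “Low” against “High”, 1 for “Medium” against “High” and 0 for “Low” against “Medium”, became 355, 259, 303 and 122 with DESeq2, 68, 34, 48 and 5 with no filter, 56, 30, 40 and 0 with a mean count of at least 10, 23, 16, 14 and 0 with limma-voom, and 57, 30, 39 and 0 with the replicate block. Library sizes alone gave 14 in the joint comparison, 8 higher and 6 lower, where TMM gave 3 higher and 7 lower. That scaling gave 0 for “Low” and 0 for “Medium” against “High”, as did fits on only the groups compared. Leaving out ribosomal RNA rows gave 2 for “Low” against “High”. Leaving out each library in turn gave 34 to 242, 19 to 65, 11 to 275 and 0 to 194 for the 4 comparisons, with 242, 275 and 194 without Medium replicate 2, and 0 to 1 members, the 1 being Cdk4 without High replicate 1 (8.61; -0.17 without High replicate 2). The cause was not tested.

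With library sizes alone 1 member, Ccnd1, separated in the joint comparison where 0 did with TMM, beside 20.1% of all rows under that scaling and 18.2% with TMM. Joint log2 fold changes that changed sign were Ccnd1 (0.33) and Cdkn2b (0.067) with library sizes alone, and E2f1 with limma-voom (-0.32) and with the replicate block (-0.043). Leaving out each library in turn turned others, with ranges of -0.29 to 0.16 for Ccnd1 (positive without High replicate 2), -0.025 to 0.94 for Ccnd3, -0.75 to 1.28 for Ccne1, -0.17 to 8.61 for Cdk4, -3.49 to 10.6 for Cdkn1b, -0.52 to 7.82 for Ccne2, -1.07 to 0.015 for Rbl2, -1.01 to 0.47 for E2f1, -0.46 to 1.21 for Mnat1, -0.090 to 0.47 for Skp1 and -0.83 to 0.27 for Map2k1. Replicate numbers only name the libraries, since same-numbered libraries did not deviate together (correlations of 0.00342 to 0.00733), and the block changed no call on a member. For the low members, 0 counts allow up to 0.435 to 0.716 CPM by counting error alone. Replicates differed by more than that, as Cdk4 with 552 and 1 counts in “High” and Cdkn1b with 0 and 301 in “Medium”. A 0 therefore sets no firm ceiling, and the reason for such differences was not tested.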
